A study of Mus musculus with 16 samples.

Results

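Livers of mice that had received corn oil alone were compared after 3 weeks and after 18 h in formalin. The members were chosen by label: 8 of the 16 arrays of the series carried a liver of a corn oil control, 4 at each time, and no array of a furan-treated liver entered. The series set furan against corn oil in formalin-fixed, paraffin-embedded liver, on 2-colour Agilent mouse gene expression arrays. The 3-week arrays 2.1 and 2.2 share sample number 2, correlated at r = 0.94 and were averaged, which left 4 samples at 18 h (numbers 2, 3, 4 and 6) and 3 at 3 weeks (numbers 2, 4 and 6).

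All mice were B6C3F1 females, a hybrid strain used in toxicology, 5 to 6 weeks old when bought. They were gavaged with corn oil for 21 days. Sampling followed the last gavage by 4 h. RNA was extracted from 1 section of 10 µm at 18 h and from 2 sections of 10 µm at 3 weeks, so the time in formalin and the number of sections cannot be told apart. The labels give RNA integrity numbers of 1.3 to 2.4 for the samples of the whole series. They do not say whether a number shared by both times names the same animal, and p-values measure only the spread between these samples. Each liver sample was labelled with Cy5 and set against a Cy3 pool of all samples of the series, the furan-treated ones included.

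Formalin adds methylol groups to the bases of RNA and links RNA to protein, and RNA in paraffin blocks is broken into short pieces. Reverse transcription stops at damaged or linked positions, so an array probe reads only the pieces that include its own target stretch. In liver most RNA comes from hepatocytes, which make plasma proteins, bile acids, urea and glucose and oxidise foreign compounds, while Kupffer, endothelial, stellate, bile duct and blood cells contribute the rest.

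In the Cy5 channel, probes well above background made up 44.7%, 50.1%, 49.9% and 44.3% of 55681 probes on the 18 h arrays 2, 3, 4 and 6. At 3 weeks the shares were 36.7%, 32.7%, 35.8% and 32.3% on arrays 2.1, 2.2, 4 and 6. The ranges did not overlap, with 47.3% ± 3.18 (SD, n = 4) at 18 h and 34.3% ± 1.77 (SD, n = 3) at 3 weeks (exact two-sided permutation test, p = 0.0571, the smallest p that 3 samples against 4 allow). In the Cy3 channel, which held the same pool on every array, the shares were 57.2% ± 3.82 (SD, n = 4) and 54.7% ± 0.535 (SD, n = 3) and overlapped (exact permutation p = 0.457). The 90th percentile of the Cy5 signal was 5.49 ± 0.747 (SD, n = 4) times the median at 18 h and 3.23 ± 0.104 (SD, n = 3) times at 3 weeks (exact permutation p = 0.0571). The arrays lay on 2 slides with 2 arrays of each time on each slide. The main fit, which gave the differences, SEs and calls below, had the slide as a term. Values of single samples, their SDs and list means, array correlations and signals did not. Whether the lower share of detected probes has a part in the differences between the times was not tested.

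**Figure D1:**
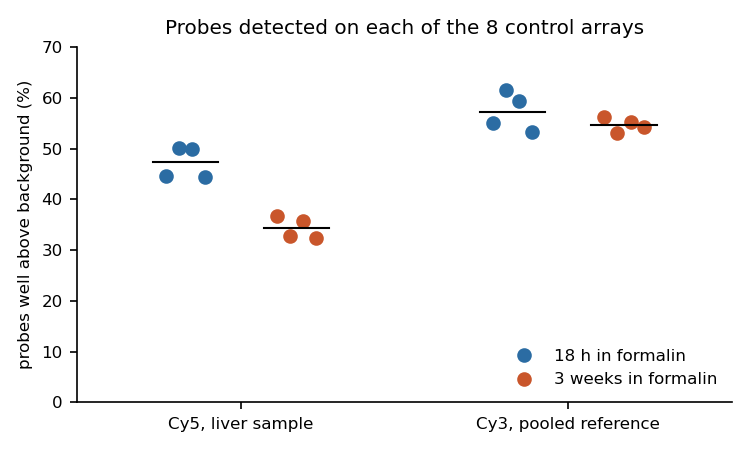
Share of probes well above background (vertical axis, percent) on the 4 arrays of each time in formalin, for the liver channel and for the pool channel; points are arrays and bars are means over arrays. In Cy5 the 3-week arrays sit between 32.3% and 36.7%, below all 18 h arrays, while in Cy3 the times overlap.

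The main comparison asked which transcripts differed in measured abundance between 3 weeks and 18 h in formalin. Values are log2 of liver over pool, differences are 3 weeks minus 18 h on that scale, and a gene was called when its adjusted p was under 0.05 (limma, Benjamini-Hochberg over all tested genes). "Rose" and "fell" refer to calls, higher and lower at 3 weeks. Of 19439 tested genes and transcripts 12755 were called, a share of 65.6%, of which 6722 rose (34.6% of those tested) and 6033 fell (31% of those tested). The samples of the times did not overlap for 64.7% of the tested genes. Differences of at least 4-fold were called for 3.94%, with 445 rises (2.29%) and 321 falls (1.65%). The median difference over all tested genes was 0.06. When arrays were only centred on their medians, the median of all genes moved to -0.29 and the calls to 3167 higher and 8909 lower, so the balance of rises and falls rests on the scaling. The median SD between samples was 0.14 at 18 h and 0.18 at 3 weeks.

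The direction differed with how a gene was detected. Of the 13707 genes above background on at least 3 arrays at both times, 70.1% were called, 42.9% rose and 27.2% fell, with a median of 0.22. Among 5111 genes kept through the 18 h arrays alone 49.8% were called, 4.77% rose and 45% fell, and among 621 kept through the 3-week arrays alone 97.3% rose. Genes of these last groups passed the filter only through the time at which they were bright, so their direction is not a separate result.

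**Figure D2:**
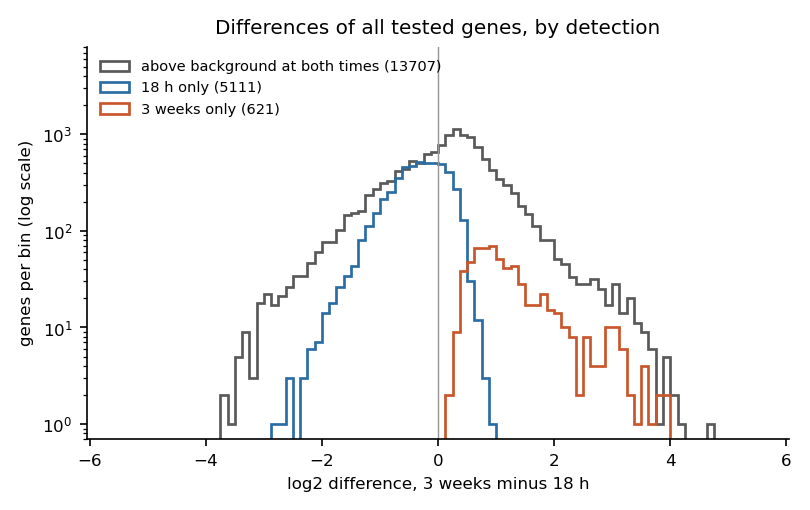
Number of genes (vertical axis, log scale) by log2 difference between 3 weeks and 18 h (horizontal axis), for genes above background at both times, at 18 h only and at 3 weeks only. The genes detected at both times spread on both sides of 0, with a median of 0.22, while those detected at 18 h only and at 3 weeks only have medians of -0.30 and 1.02.

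Arrays of the same time were alike and arrays of different times opposed each other. Over all tested genes, which do not count as replicates, arrays correlated at a median r of 0.872 within 18 h and 0.868 between different numbers within 3 weeks. Between the times the median r was -0.274, and all pairs lay between -0.353 and -0.177. Both sets are ratios to the same pool, in which the livers of both times are included.

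Shc4, an adaptor protein of receptor tyrosine kinases, rose furthest among genes with a symbol. It lay at -2.18, -2.56, -2.72 and -2.77 in the 18 h samples 2, 3, 4 and 6 and at 2.44, 1.34 and 1.07 in the 3-week samples 2, 4 and 6. It rose by 4.18 (SE 0.29, adjusted p = 2.36e-06), with sample 2 highest, but its other probe differed by -0.0019. Impg1, a proteoglycan of the matrix around photoreceptors, lay between -3.21 and -2.99 at 18 h and at 1.64, 0.87 and 0.37 at 3 weeks, a 17.2-fold rise (SE 0.25 on the log2 scale). Both genes were above background on all 8 arrays and their samples did not overlap. Cabp5, a calcium-binding protein of the retina, rose by 3.94, Lrrc19, a leucine-rich repeat membrane protein, by 3.71 and Rtl4, a gene derived from a retrotransposon, by 3.70. Lzts3, a postsynaptic protein, rose by 3.54 and Ccdc60, a coiled-coil protein, by 3.49. Pak7, a p21-activated kinase of brain, rose by 3.51, and its other probe by 1.32. The median Cy5 spot signals of Cabp5 were 8967.5 to 10861.5 on the 18 h arrays and 37441 to 61792 on the 3-week arrays. Those of Pak7 were 160.5 to 257 and 778.5 to 1169.5. Whether the probes of these genes read the named transcripts was not tested. The 3-week samples differed among themselves in these genes. Of the 445 rises of at least 4-fold, 296 were highest in 3-week sample 2, 141 in sample 6 and 8 in sample 4. The median SD between the 3-week samples was 0.42 for these rises and 0.17 for the 321 falls of the same size. Without 3-week sample 2 there were 410 such rises and 358 such falls.

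The largest falls included Gapdh and genes of hepatocyte metabolism. Gapdh, the glycolytic dehydrogenase often used as a reference gene, lay at 1.05, 1.15, 1.18 and 1.29 at 18 h and at -2.07, -2.27 and -2.15 at 3 weeks. It fell by 3.33 (SE 0.11, adjusted p = 1.83e-07), and its median Cy5 spot signals were 33327.5 to 47070 on the 18 h arrays and 3707 to 5148 on the 3-week arrays. Gpx1, the cytosolic glutathione peroxidase, lay between 1.06 and 1.20 at 18 h and at -2.05, -2.41 and -2.62 at 3 weeks, a fall of 3.47 (SE 0.14). The samples of the times lay far apart for both genes. At 18 h and 3 weeks the SDs were 0.097 and 0.099 for Gapdh and 0.063 and 0.288 for Gpx1. Ttr, the thyroxine carrier transthyretin secreted by hepatocytes, fell by 2.94 (SE 0.13), from 0.96 to 1.11 at 18 h to -2.22 to -1.75 at 3 weeks. Cyp2d22, a P450 of the debrisoquine hydroxylase family, fell by 3.20 and Ugt3a2, a glycosyltransferase, fell by 3.02. Pfn1, the actin-binding protein profilin, fell by 3.08 and Aup1, a protein of lipid droplets and the endoplasmic reticulum, by 2.98. H13, the signal peptide peptidase, fell by 3.07 on its brightest probe, while its other probes differed by 0.46 and -0.52.

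H2-K2, a class I histocompatibility sequence listed as noncoding, fell furthest among genes with a symbol, by 3.72 (SE 0.10), and its other probe fell by 2.77. H4c14, a replication-dependent histone H4 gene, fell by 3.30, and its other probe rose by 0.30. Class I, histone H4, Serpina1, globin, P450 and olfactory receptor genes have near-identical copies, and Gapdh and ribosomal protein genes have pseudogenes, so the probes may read more than the named gene.

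**Figure D3:**
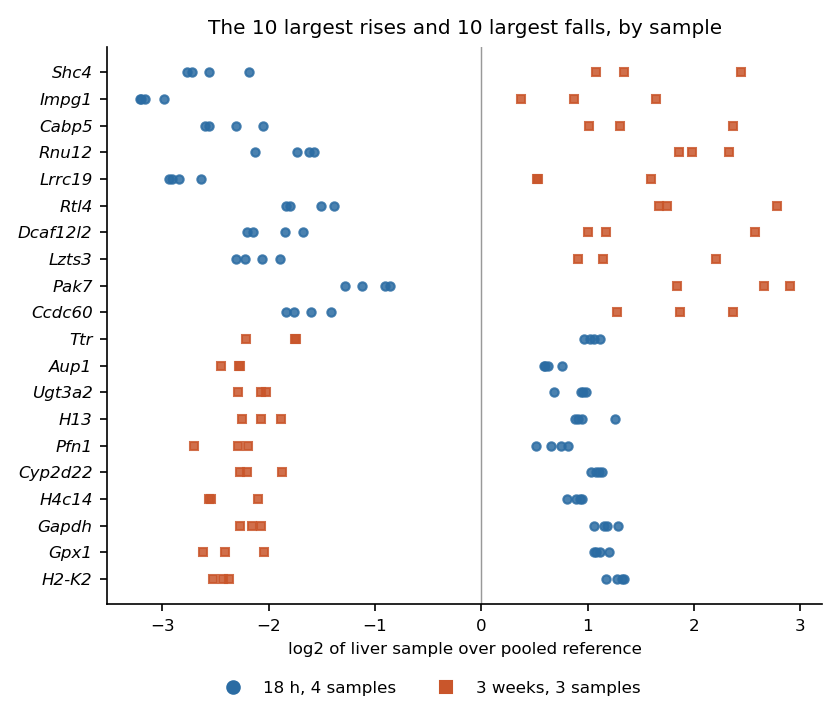
Log2 of liver over pool (horizontal axis) in each of the 4 samples at 18 h and 3 samples at 3 weeks, for the 10 largest rises and the 10 largest falls among named genes whose samples do not overlap. The rises lie below the pool at 18 h and above it at 3 weeks, with wider spread at 3 weeks, and the falls lie the other way with the 18 h samples close together.

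Probes of the same gene often disagreed. Over all 4166 genes and transcripts with at least 2 tested probes, all probes rose for 8.69%, all fell for 14.6%, and 22.9% had called probes in both directions. Of 2533 genes with a symbol and at least 2 tested probes, all probes rose for 187 (7.38%), all fell for 437 (17.3%), and probes moved in both directions for 567 (22.4%). The differences of the brightest and the next brightest probe correlated at r = 0.165 over these genes, and of the 1212 genes with both called, 500 (41.3%) were called in opposite directions. The share was 40.6% where both probes carried the same RefSeq accession. Gapdh had 7 tested probes, all listed under 1 accession. Its brightest probe fell by 3.33, the others differed by 1.06, -1.45, -2.53, -1.91, -3.10 and -0.36 in order of brightness, and all 7 were called. Of 9 genes of secreted hepatocyte proteins with more than 1 tested probe, 3 had probes called in both directions, 2 fell on all probes and 0 rose on all. The 3 with both directions were as follows. C3, the central complement component, rose by 0.34 on its brightest probe and fell by 1.83 on the other. Trf, transferrin, rose by 0.89 and fell by 1.80, and Kng1, kininogen, rose by 1.17 and fell by 1.35. Bhlhe41, a transcriptional repressor of the circadian clock, rose by 3.28 and fell by 0.83.

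**Figure D4:**
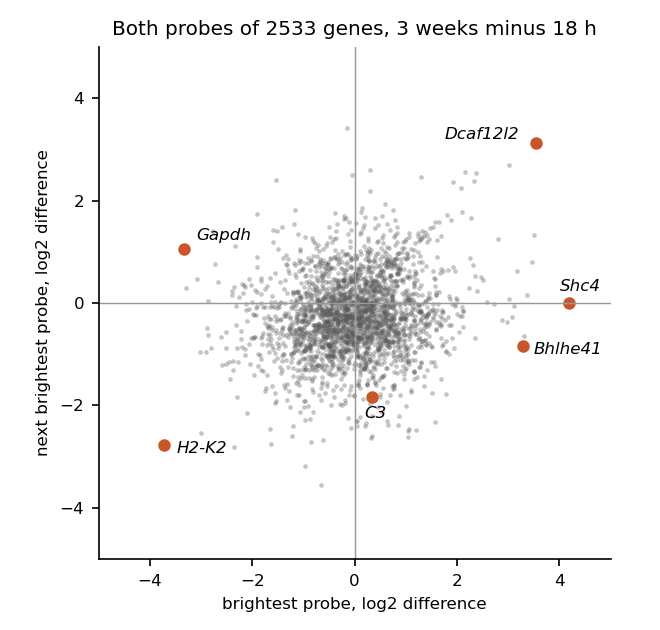
Log2 difference of the brightest probe (horizontal axis) against that of the next brightest probe (vertical axis) for 2533 genes with a symbol, with 6 genes of the text marked. The points form a round cloud (r = 0.165). Dcaf12l2 and H2-K2 moved far in the same direction on both probes, and Gapdh, C3 and Bhlhe41 in opposite directions.

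Some genes moved alike on every tested probe. Among rises ranked by the smaller of their probe differences, Dcaf12l2, a WD repeat protein, rose by 3.55 and 3.13 and Ermn, a cytoskeletal protein of myelin-forming cells, by 3.01 and 2.69. Adra1b, the alpha-1B adrenergic receptor present on hepatocytes, lay between -2.66 and -2.34 at 18 h and at 0.14, -0.04 and -0.39 at 3 weeks, and rose by 2.36 (SE 0.14) and by 2.53 on its other probe. The 3-week samples were thus near the pool and the 18 h samples well below it. Krtap5-1, a hair keratin-associated protein, Brsk1, a brain kinase, and Lypla2, an acyl-protein thioesterase, rose by 2.33, 2.15 and 2.08, and their other probes by 2.38, 2.56 and 2.24. Dnajc19, a mitochondrial import cochaperone, Mink1, a protein kinase, Eva1b, a membrane protein, and Stim1, the calcium sensor of the endoplasmic reticulum, completed the group with 4.28-fold, 3.68-fold, 2.97-fold and 2.89-fold rises.

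Falls on both probes included transporters and enzymes of the hepatocyte. Slc10a1, the bile acid uptake transporter of the sinusoidal membrane, lay between 0.964 and 1.105 at 18 h and at -0.40, -0.91 and -0.91 at 3 weeks, and fell by 1.75 (SE 0.14), and its other probe fell by 1.72. Fmo1, a flavin monooxygenase, fell by 1.53 and 1.92, and Serpina1d, an alpha-1-antitrypsin gene, by 1.63, and its other probe fell by 2.76. H2-Q2, a class I histocompatibility gene, fell by 2.30 and 1.83, and H4c12, a histone H4 gene, by 1.56, and its other probe fell by 1.95. Apba3, an adaptor protein, fell by 2.11 and 2.14, Mrps2, a mitochondrial ribosomal protein, by 1.66 and 2.46, and Sntb1, a syntrophin, by 1.55 and 1.76. Plekha6, a pleckstrin homology protein, passed the filter only through the 18 h arrays and reached no signal well above background at 3 weeks. It was at least 2.82-fold lower there (adjusted p = 4.66e-06). Such bounds compare the mean Cy5 signal of the brighter time, scaled between arrays in each channel, with a floor for the dimmer time. The floor was the lowest signal of a detected probe, raised to the gene's own signal where that was higher. For Plekha6 and Snhg3 the floor equalled the gene's own signal, so the bound is the measured fold. These bounds do not limit the liver over pool differences, and some exceeded them, as given below.

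Hepatocyte gene groups fell more often than all tested genes, of which 31% fell. Of 52 tested P450 genes for drugs and other lipophilic compounds 38 fell and 5 rose, with a median of -0.98 against 0.06 for all genes. Cyp2c29 lay between 0.909 and 1.102 at 18 h and at -1.25, -1.46 and -1.62 at 3 weeks, and fell by 2.48 (SE 0.12). Cyp2e1, the ethanol-inducible P450, fell by 1.33 and by 1.90 on its other probe, and Cyp1a2 fell by 2.40. Their times did not overlap. The 5 that rose, named after their values were seen, were Cyp4f18 (1.51), Cyp2r1 (0.88, with -0.86 on its other probe), Cyp4a10 (0.60, with 0.26 on a second probe and -2.002 on the third), Cyp3a44 (0.42) and Cyp2d10 (0.34). Cyp3a44 differed by -0.03 when arrays were centred on medians only.

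Amino acid and urea cycle enzymes gave 34 falls and 5 rises of 50 tested, with a median of -0.74. Fah, the last enzyme of tyrosine breakdown, lay between 0.83 and 1.23 at 18 h and at -1.63, -2.06 and -2.08 at 3 weeks, a fall of 2.90 (SE 0.15). Uroc1, the urocanase of histidine breakdown, fell by 2.45, and Ahcy, which hydrolyses S-adenosylhomocysteine, fell by 2.39 on its brightest probe, with 0.23 on the other. The rises, named after their values were seen, were Amdhd1 (1.14), Ivd (0.73), Tat (0.63), Sdsl (0.35) and Ftcd (0.33). Sdsl differed by -0.26 under median centring. Of 36 tested genes of fatty acid oxidation and ketogenesis 22 fell and 5 rose, with a median of -0.67. Acaa1b, a peroxisomal thiolase, and Eci1, a mitochondrial enoyl-CoA isomerase, fell by 2.07 and 2.05, while Etfb, Cpt2, Acads and Fgf21 rose by 1.27, 1.17, 0.68 and 0.58, with Cyp4a10 as the remaining rise. These rises were chosen after their values were seen. Genes of sterol and fatty acid synthesis gave 19 falls and 8 rises of 34, with a median of -0.53. Of 12 of them with more than 1 tested probe, 5 had probes called in both directions and 5 fell on all. Fdft1, squalene synthase, fell by 2.87 and Me1, malic enzyme, by 2.52, with 0.62 and 1.20 as the falls of their other probes.

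Plasma proteins behaved unevenly. Of 30 genes of secreted hepatocyte proteins 19 fell and 4 rose, with a median of -0.59, and in the list mean the 18 h samples lay between 0.24 and 0.32 and the 3-week samples between -0.71 and -0.36. Apoa1, the main apolipoprotein of high-density lipoprotein, lay between 0.51 and 0.82 at 18 h and at -0.78, -0.94 and -1.47 at 3 weeks, and fell by 1.72 (SE 0.16). Hrg, histidine-rich glycoprotein, fell by 2.63, and Gc, the vitamin D binding protein, fell by 1.97 with -0.24 on its other probe. Alb, the gene of serum albumin, lay at 0.66, 0.46, 0.64 and 0.39 at 18 h and at 0.58, 0.44 and 0.04 at 3 weeks. Its times overlapped, the difference of -0.18 (SE 0.14) was not called (adjusted p = 0.280), and it was 0.19 under median centring. The median Cy5 spot signal of Alb was 87791 to 114087 at 18 h and 106729 to 133332 at 3 weeks. Among the 4 rises were C3, Trf and Kng1, each with the opposite call on another probe as described above.

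All 15 hepatocyte markers on the array were tested and were above background at both times. Of these 10 fell and 2, Tat and Asgr2 (0.29), rose, with a median of -0.62. In such bulk samples fewer cells of a type and less RNA per cell cannot be told apart. G6pc, the glucose-6-phosphatase of glucose release, fell by 1.55. Genes of pericentral hepatocytes gave 6 falls (46.2%) and 2 rises (15.4%) of 13 (median -0.25). Those of periportal hepatocytes gave 5 falls (38.5%) and 2 rises (15.4%) of 13 (median -0.12). Of all tested genes 31% fell and 34.6% rose. Rgn, the calcium-binding lactonase regucalcin, a pericentral gene, fell by 1.56. Glul, glutamine synthetase of the cells around the central vein, lay between 0.01 and 0.19 at 18 h and between -0.17 and -0.11 at 3 weeks. These ranges did not overlap, but the difference of -0.22 (SE 0.10) was not called (adjusted p = 0.0855), and it was 0.17 in the Cy5 channel alone. Among periportal genes the urea cycle enzymes Asl, Arg1 and Ass1 fell by 1.49, 1.22 and 0.57, Cyp2f2, a P450, fell by 0.98 and Gls2, the liver glutaminase, by 0.76. Pigr, the polymeric immunoglobulin receptor, rose by 1.30 and by 1.24 on its other probe, and Pck1, a gluconeogenic enzyme, rose by 0.54. The pericentral rises were Tbx3 (0.58) and Lect2 (0.29). Asgr2, Tbx3, Lect2, Pigr, Pck1, Ass1 and Gls2 were chosen after their values were seen.

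**Figure D5:**
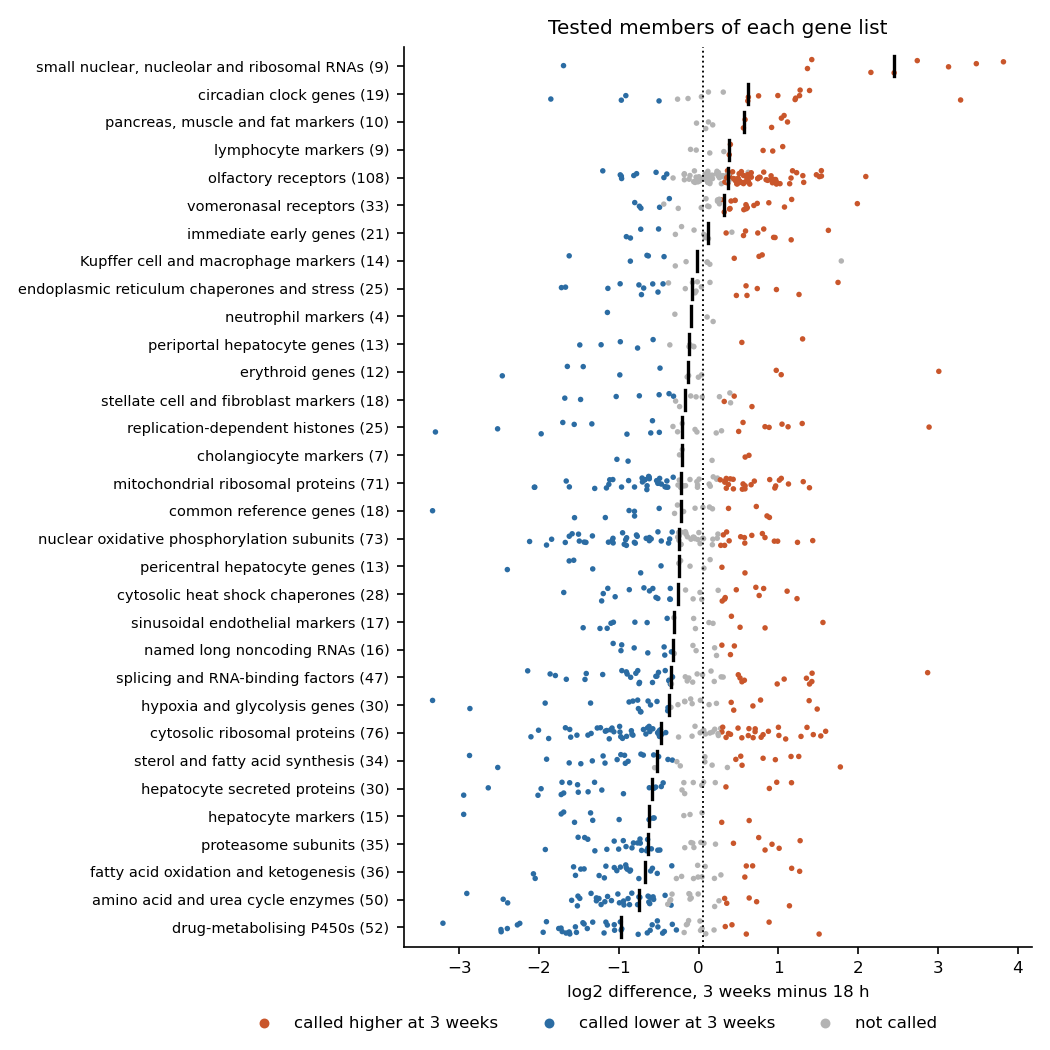
Log2 difference between 3 weeks and 18 h (horizontal axis) of every tested member of 32 gene lists, with the number tested in brackets; each point is a gene, coloured by its call, bars are list medians and the dotted line is the median of all tested genes, 0.06. P450 genes have the lowest median, -0.98, and small nuclear, nucleolar and ribosomal RNAs the highest, 2.45.

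Of all tested genes 31% fell and 34.6% rose, and the counts for genes of basic cell machinery stand beside these shares. Of 76 cytosolic ribosomal protein genes 40 fell and 23 rose, with a median of -0.47. Rps2, Rpl19 and Rps7, proteins of the small and large subunit, were 4.29-fold, 4.01-fold and 3.68-fold lower, and the other probe of Rps2 fell by 0.34. More than 1 probe was tested for 50 of these genes, and for 14 of the 50 the probes were called in both directions. Of 71 mitochondrial ribosomal protein genes 32 fell and 23 rose (median -0.22). The median was -0.013 over the 60 above background at both times, and the other 11 passed the filter only through the 18 h arrays. Mrps15 and Mrps5 fell by 2.05 and 2.06, while Mrps26 lay between -0.47 and -0.35 at 18 h and between 0.87 and 0.98 at 3 weeks and rose by 1.31 (SE 0.10). Its other probe differed by 0.15. Nuclear-encoded subunits of oxidative phosphorylation gave 33 falls and 15 rises of 73 (median -0.24), among them Atp5h, of ATP synthase, which fell by 2.12. Ndufc2 and Ndufb8, of complex I, were 3.58-fold and 3.75-fold lower. The other probe of Atp5h differed by -0.13.

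Of 35 proteasome subunit genes 22 fell and 6 rose, with a median of -0.64. Psmb1, a subunit of the catalytic core, fell by 1.92 and Psmc5 and Psme1, of the regulatory caps, by 1.39 and 1.51. Among the 7 subunit genes with another probe the median of that probe was 0.59. Splicing and RNA-binding factors gave 24 falls and 11 rises of 47 (median -0.34). Hnrnpk, Srsf5 and Hnrnpl fell by 2.14, 1.86 and 1.79. Srsf3, a splicing factor chosen after its value was seen, rose by 2.87, while its other probe differed by -0.34. Glycolysis and hypoxia genes gave 15 falls and 6 rises of 30 (median -0.36), and Pklr, the liver pyruvate kinase, fell by 2.86 (SE 0.15), from 0.84 to 1.48 at 18 h to -1.87 to -1.70 at 3 weeks. Of 10 genes of this list with more than 1 tested probe, 6 had probes called in both directions and 2 fell on all. Among all such genes with a symbol, 22.4% had probes called in both directions.

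Small structured RNAs mostly rose. Of 9 small nuclear, nucleolar and ribosomal RNAs 8 rose and 1 fell, beside 34.6% of all genes that rose, and the list median was 2.45. Rnu12, the U12 RNA of the minor spliceosome, lay at -1.74, -2.13, -1.62 and -1.58 at 18 h and at 2.33, 1.98 and 1.86 at 3 weeks, a rise of 3.82 (SE 0.17, adjusted p = 2.84e-07). Rnu1b6, a U1 RNA of the major spliceosome, lay between -1.31 and -0.80 at 18 h and at 2.72, 2.67 and 2.06 at 3 weeks, a rise of 3.48. Snora74a, a box H/ACA nucleolar RNA that was above background on 2 of 4 arrays at 18 h and passed the filter only through the 3-week arrays, rose by 3.13. The times did not overlap for these 3 genes, and all 3-week samples were high. The other rises, named after their values were seen, were Rnu2-10, a U2 RNA (2.74), Rnu3b1, a U3 RNA (2.45), Snora47 (2.16), the 28S ribosomal RNA gene Rn28s1 (1.42) and Terc, the telomerase RNA (1.37). Rn28s1 differed by -8.4e-05 in the Cy5 channel alone. The RNA component of the mitochondrial RNA-processing endoribonuclease, Rmrp, also chosen after its value was seen, fell by 1.69.

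Of all tested genes 31% fell and 34.6% rose. Of 16 named long noncoding RNAs 8 fell (50%) and 3 rose (18.75%), with a median of -0.32. Of these, 6 passed the filter only through the 18 h arrays, where they were bright, and the 10 above background at both times had a median of 0.066. Airn, the antisense transcript of Igf2r, fell by 1.07, Tug1, above background on 1 of 4 arrays at 3 weeks, fell by 0.81, and Snhg3, a snoRNA host gene not above background at 3 weeks, was at least 1.85-fold lower. Tug1 and Snhg3 are among the 6. The rises of Peg13 (0.45), Xist (0.40) and Snhg6 (0.29), chosen after their values were seen, were all below 0 under median centring. Replication-dependent histone genes gave 10 falls and 8 rises of 25 (median -0.20, and -0.044 over the 23 above background at both times). Besides H4c14 and H4c12, H4c9 fell by 2.52, with a fall of 0.57 on its other probe, and H2bc14 fell by 1.97.

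Stress and early response genes moved in both directions. Of 21 immediate early genes 9 rose (42.9%) and 4 fell (19.05%), beside 34.6% and 31% of all tested genes. Their median of 0.12 became -0.38 under median centring. Jund, a subunit of the AP-1 transcription factor, lay between -1.18 and -0.99 at 18 h and at 0.38, 0.50 and 0.73 at 3 weeks, and rose by 1.63 (SE 0.11). Fosl2 and Junb, other subunits of AP-1, rose by 1.16 and 0.82. The falls, chosen after their values were seen, were Socs3 (0.90), Fosb (0.85), Klf10 (0.72) and Ier2, which was not above background at 3 weeks and at least 1.31-fold lower. Ier2 passed the filter only through the 18 h arrays. Fos and the inducible Hspa1b were too dim to be tested. Of 28 cytosolic chaperone genes 14 fell and 9 rose (median -0.26), shares of 50% and 32.1%. The median was -0.025 over the 24 above background at both times. Cct2 and Cct3, of the chaperonin that folds actin and tubulin, fell by 1.69 and 1.21, and Dnaja1, a cochaperone, by 1.14. Cct3 was above background on 1 of 4 arrays at 3 weeks and passed the filter only through the 18 h arrays. Endoplasmic reticulum genes gave 10 falls (40.0%) and 7 rises (28.0%) of 25 (median -0.08). Calr, the lectin chaperone calreticulin, fell by 1.67, while Trib3 and Ppp1r15a, targets of the integrated stress response, rose by 1.75 and 1.26.

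Circadian clock genes gave 10 rises (52.6%) and 4 falls (21.1%) of 19, beside 34.6% and 31% of all tested genes. Their median was 0.62, and the median of the next brightest probe was -0.83 for the 5 that had one. Besides Bhlhe41, Cry2, a cryptochrome repressor, rose by 1.27, from -0.55 to -0.30 at 18 h to 0.70 to 1.00 at 3 weeks. Csnk1e, the kinase of the period proteins, rose by 1.39 on its brightest probe and fell by 0.81 on the other. The falls, named after their values were seen, were Per3 (1.85), Per2 (0.97), Nr1d1 (0.91) and Rora (0.49).

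Markers of other liver cells showed no common direction. Of 14 Kupffer cell and macrophage markers 5 fell and 3 rose, shares of 35.7% and 21.4% beside 31% and 34.6% of all tested genes. Their median was -0.02, and 0.11 over the 12 above background at both times. The other 2, Folr2 and Cd163, are among the falls and passed the filter only through the 18 h arrays. C1qa, a chain of the first complement component, lay at 0.68, 0.81, 1.55 and 0.55 at 18 h and at -0.96, -0.36 and -0.85 at 3 weeks, and fell by 1.62 (SE 0.18). Its 18 h sample 4 stood highest, and the list mean was 0.64 in that sample against -0.05 to 0.01 in the other 18 h samples and -0.14 to 0.28 at 3 weeks. Without that sample the list median was 0.11. Cd5l, a scavenger receptor protein, fell by 0.85, Folr2, a folate receptor, was at least 1.25-fold lower, and Clec4f, a lectin of Kupffer cells, differed by -0.29 (adjusted p = 0.0602). The other falls, named after their values were seen, were Marco (0.63) and Cd163, at least 1.27-fold lower, and the rises were Csf1r (0.80, with 1.62 and -0.96 on its other probes), Adgre1 (0.76, with -0.10) and Slc40a1 (0.45, but -0.16 under median centring). Lyz2, lysozyme, differed by 1.79 but with an SE of 0.86, and was not called (adjusted p = 0.0904).

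Sinusoidal endothelial markers gave 8 falls (47.1%) and 4 rises (23.5%) of 17, beside 31% and 34.6% of all tested genes. Their median was -0.31, and -0.061 over the 13 above background at both times. Stab2, the hyaluronan scavenger receptor, lay between 0.29 and 0.54 at 18 h and between -0.81 and -0.58 at 3 weeks and was 2.14-fold lower. Clec4g, a sinusoidal lectin, and Fcgr2b, an Fc receptor, fell by 1.45 and 1.23, while Ehd3, a membrane trafficking protein, rose by 1.56. The other rises, chosen after their values were seen, were Egfl7 (0.83), Eng (0.52) and Tek (0.41), and Eng and Tek were below 0 under median centring. Stellate cell markers gave 7 falls (38.9%) and 3 rises (16.7%) of 18 (median -0.17). Of these, 8 passed the filter only through the 18 h arrays, and the median of the 10 above background at both times was 0.15. Reln and Des, an extracellular glycoprotein and an intermediate filament, both among the 8, were not above background at 3 weeks and were at least 2.59-fold and 1.85-fold lower. Ecm1, a secreted matrix protein, fell by 1.48, with -0.08 on its other probe. The rises of Tagln (0.67), Acta2 (0.45, but -0.17 under median centring) and Lrat (0.32) were chosen after their values were seen. Acta2 lost its call in 16 of 28 alternative settings and Lrat in 16 of 27. Of 7 tested bile duct markers 2 fell (28.6%) and 2 rose (28.6%). Onecut1 fell by 1.02, and Spp1, which passed the filter only through the 18 h arrays, was at least 1.57-fold lower. Cldn7 and Krt7 rose by 0.58 and 0.63, the last chosen after its value was seen.

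Lymphocyte markers gave 5 rises (55.6%) and 0 falls of 9 tested, out of 19 on the array, beside 34.6% and 31% of all tested genes. Their median was 0.38, and it ran from 0.014 to 0.87 over the alternative settings. Cd4 lay between -0.93 and -0.70 at 18 h and at 0.20, -0.21 and 0.69 at 3 weeks and rose by 1.06 (SE 0.17). Nkg7 and Gzma, of cytotoxic granules, rose by 0.93 and 0.81, and Lck (0.40) and Cd3e (0.38), chosen after their values were seen, rose as well. Lck lost its call in 17 of 27 alternative settings and Cd3e in 5 of 28. Of 4 tested neutrophil markers only Csf3r was called, with a fall of 1.14, and Lcn2 differed by -0.30 (adjusted p = 0.0847). Ltf, lactoferrin, reached no signal well above background at 3 weeks.

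Globin genes, which mark blood in the tissue, split within the family. Hbb-bs, an adult beta globin, lay at -1.03, -1.38, -0.83 and -1.14 at 18 h and at 2.13, 2.07 and 1.55 at 3 weeks, a rise of 3.01 (SE 0.17). Hba-a1, an adult alpha globin, lay at 0.73, 1.38, 0.82 and 0.72 at 18 h and at -1.63, -1.44 and -1.57 at 3 weeks, a fall of 2.46 (SE 0.15). The times did not overlap for either gene, in opposite directions. Hba-a2 rose by 1.04 and Hbb-b2 and Hbb-bt fell by 1.45 and 0.99, so each chain had probes in both directions. In all, 3 of 12 erythroid genes rose (25%) and 5 fell (41.7%), beside 34.6% and 31% of all tested genes. Of the 12, 2 passed the filter only through the 18 h arrays. Bpgm, a bisphosphoglycerate mutase of red cells, was at least 2.30-fold lower but passed the filter only through the 18 h arrays. Alas2, the erythroid heme synthesis enzyme, fell by 0.48. Hba-a2, Hbb-b2, Hbb-bt and Alas2 were chosen after their values were seen.

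Receptor genes of the olfactory and vomeronasal families, which liver is not known to use, were examined as well. Of 1071 olfactory receptor genes on the array 108 passed the filter. Of these 57 rose (52.8%), 9 fell (8.33%) and 42 were not called, while 34.6% of all tested genes rose and 31% fell. The olfactory receptors had a median of 0.37. Over the alternative settings, the next brightest probe aside, that median ran from 0.032 to 0.56. Of the 108, 40 were above background at both times, 48 at 18 h only and 20 at 3 weeks only, and the 20 had to be brighter at 3 weeks. The median of the 40 was 0.51, against 0.22 for all tested genes above background at both times. Olfr312, Olfr3 and Olfr266 are among the 20 and were not above background on any 18 h array. Olfr3 was at least 2.18-fold higher at 3 weeks (adjusted p = 1.74e-05). For Olfr312 and Olfr266 the liver over pool ratios were 2.86-fold and 2.26-fold higher. Bounds from the Cy5 signal, 2.97-fold and 2.29-fold, exceeded these folds and are not used for them. The other bounds in the text rest on the Cy5 signal in the same way. Vomeronasal receptors gave 17 rises (51.5%) and 5 falls (15.2%) of 33 tested, out of 256 on the array, beside 34.6% and 31% of all tested genes. Their median of 0.32 became -0.05 under median centring. Vmn1r234 lay between -0.73 and -0.23 at 18 h and between 1.15 and 1.70 at 3 weeks and rose by 1.99 (SE 0.14). Vmn1r192 was at least 1.86-fold higher, and the ratio of Vmn2r59 was 2.25-fold higher, with no bound for the same reason. Both passed the filter only through the 3-week arrays. The falls, chosen after their values were seen, were Vmn1r65 (0.80), Vmn1r52 (0.49), Vmn1r168 (0.37), and Vmn1r81 and Vmn1r26, at least 1.29-fold and 1.24-fold lower. Vmn1r81 and Vmn1r26 passed the filter only through the 18 h arrays. Markers of pancreas, muscle and fat gave 6 rises (60.0%) and 0 falls of 10 tested, out of 24 on the array, beside the same shares of all tested genes. Their median was 0.57. That median ran from 0.10 to 0.81 over the alternative settings. Ins2, insulin, Pvalb, parvalbumin of fast muscle, and Retn, resistin of fat, rose by 1.07, 0.92 and 0.58.

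Of 18 tested common reference genes 7 fell (38.9%) and 4 rose (22.2%), beside 31% and 34.6% of all tested genes. Their median was -0.23, and -0.044 over the 15 above background at both times. Actb, beta actin, lay between -0.13 and 0.10 at 18 h and between -0.05 and 0.09 at 3 weeks, and its difference of 0.06 (SE 0.11, adjusted p = 0.679) was below 0 with Agilent's own ratios and with the deposited table. Hprt, a purine salvage enzyme, rose by 0.86, from -0.61 to -0.37 at 18 h to 0.25 to 0.50 at 3 weeks. Ywhaz, a 14-3-3 protein, fell by 1.55, with 0.02 on its other probe, and Rpl13a, a ribosomal protein, fell by 1.17 and by 0.85 and 0.91 on its other probes. The other rises, named after their values were seen, were Ipo8 (0.89), Ppia (0.72) and Rplp0 (0.38, with 0.83 and -0.49 on its other probes). Gapdh lay at the opposite end, as given above.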

How the data were processed

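The 8 scanner files of the corn oil controls hold the median signal of each spot and of its background as an intensity without normalization, per the file headers, which name Agilent Feature Extraction 11.0.1.1 for the reading. Agilent's log10 ratio of sample over reference is also in the deposited files. The deposited value table holds log2 ratios by the authors, whose method is not given in the sources used here; they matched loess ratios without background subtraction (r of 0.988 to 0.999), except that its columns for arrays 2.1 and 2.2 each matched the scanner file of the other (r of 0.983 and 0.986, against 0.900 and 0.896). It served only as an alternative, and the 8 columns of other samples were not used. Column medians lay between -0.00919 and 0.00438.

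In R 4.3.3 with limma 3.58.1, signals were corrected by normexp (offset 50) and normalized by loess within arrays. Control and outlier spots (187 to 308 per array) were left out, and spots of a probe were averaged. No dyes were swapped. Of 55681 probes 27235 were matched by accession to RefSeq symbols (GRCm38.p6 table, names only; the files name mm9). A probe was kept if well above background in Cy5 on at least 3 arrays of a time (25730 probes), and the brightest kept probe stood for its gene. lmFit and eBayes fitted time and slide, two-sided, with Benjamini-Hochberg adjustment over 19439 genes. Single array measures had exact permutation tests. The fit was tested on simulated data. The arrays' number limits the precision.

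Named genes were: the 10 largest called rises and falls without overlap and, among genes called one way on every probe, the 10 largest of each direction by the smallest probe difference, predicted and clone names left out; up to 3 members of each list with the smallest p; and Alb, Apoa1, Cyp2e1, Glul, Cyp2f2, Actb, Gapdh, Hprt, Fos, Hspa1b, Hbb-bs, Clec4f and Stab2. Some genes that the rule names are not reported here. Members and lists were chosen with earlier results of these data known. Of 33 lists, the mitochondrially encoded genes had no member on the array. Alternatives covered background, normalization, channel, filter, probe choice, slide, variance, replicate block and leaving out samples.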

Additional observations from a re-analysis of the deposited data

Results flagged for a closer look

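In the group of 4 samples at 18 h, 14 of 235 genes, lists and array measures had a sample that stood apart from the other 3 by Dixon's test at the 95% level, which chance alone gives in about 1 in 20 groups. The 3-week group, with 3 samples, was not examined in this way. The Kupffer cell and macrophage list had a mean of 0.64 in sample 4 against a median of -0.01 over the 4 samples, and its member Adgre1, an adhesion receptor of macrophages, lay at 0.19 in that sample against a median of -0.51. The endothelial marker Ehd3 lay at -0.34 in sample 4 against -0.58. Sample 3 stood apart in Ugt3a2 (0.68 against 0.95), Eva1b (-0.74 against -0.48), H4c9 (0.85 against 0.66), Cct3 (0.49 against 0.75), Hba-a1 (1.38 against 0.78), Snora47 (-0.73 against -0.28) and Vmn1r26 (0.85 against 0.25). Sample 6 did so in Ecm1 (0.22 against 0.12) and Pck1 (0.72 against 0.37). In sample 2 the mean of fatty acid oxidation genes was 0.048 against 0.093, and Klf10 lay at -0.10 against 0.09.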

How the results depend on the processing

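The comparison called 12755 genes. With each sample left out in turn 11602 to 12233 were called (5986 to 6364 higher and 5504 to 5869 lower), and 11335 to 11706 of the 12755 kept their call and direction. With the replicate block of sample numbers, 9838 genes were called. Deviations of equal numbers correlated at 0.155, 0.223 and 0.0396 (numbers 2, 4 and 6) and those of different numbers at -0.196 to 0.121. The 3-week samples 2 and 4 correlated best with their own number, while for sample 6 the 0.0396 lay below the 0.0531 with number 2. These few values cannot decide whether equal numbers are pairs. No label says what a number stands for, so it was not a block in the main fit. Higher calls fell to 3167 under median centring, where 8 calls turned. Lower calls were 3512 among probes above background on all 8 arrays, where fewer genes were tested. The next brightest probe, which exists for 4166 genes, gave 2645 calls (954 higher, 1691 lower), and 684 of the calls turned. A 1.5-fold minimum left 4411 higher calls, and a 2-fold minimum 4187 calls (2163 and 2024). Each slide alone turned 0 calls and gave 10177 and 9472. Of results for single genes under the alternatives, 5283 kept their outcome, 19 gained a call, 231 lost it without reversing and 35 reversed. Calls were lost most often for Lck (17 of 27 alternatives), Lrat (16 of 27), Acta2 (16 of 28) and Snhg6 (14 of 28). They were also lost for Asgr2 and Vmn1r52 (13 of 28 each), Lect2 and Vmn1r168 (12 of 28 each) and Ftcd (10 of 28). Single genes reversed as follows, and the cause was not tested: with Agilent's ratios Actb (-0.071) and C3 (-0.15), and with the deposited table Actb (-0.043); under median centring Ltf (-0.013), Alb (0.19), Cyp3a44 (-0.030), Sdsl (-0.26), Slc40a1 (-0.16), Eng (-0.10), Tek (-0.21), Acta2 (-0.17), Peg13 (-0.0076), Snhg6 (-0.16) and Xist (-0.14); in the Cy5 channel alone Glul (0.17) and Rn28s1 (-8.4e-05); on slide 1 Ltf (-0.00333). On the next brightest probe these were Shc4 (-0.0019), Gapdh (1.06), H4c14 (0.30), H13 (0.46), Ahcy (0.23), Csnk1e (-0.81), Bhlhe41 (-0.83), Ywhaz (0.015), C3 (-1.83), Kng1 (-1.35), Trf (-1.80), Cyp2r1 (-0.86), Adgre1 (-0.10) and Srsf3 (-0.34), and for the mean of all probes C3 (-0.74), Kng1 (-0.094), Trf (-0.46) and Cyp4a10 (-0.38). List medians reversed under median centring for immediate early genes (-0.38) and vomeronasal receptors (-0.049), for neutrophil markers with scale normalization (0.023) and without a filter (0.11), and for Kupffer markers in Cy5 alone (0.00942), with array 2.2 only (0.00562) and, among medians without each sample (-0.23 to 0.11), without 18 h replicate 4 (0.11). On probes above background on all 8 arrays they did so for heat shock chaperones (0.029), reference genes (0.0057), long noncoding RNAs (0.078), Kupffer (0.11) and stellate markers (0.15). On the next probe they did so for proteasome subunits (0.59), clock genes (-0.83), reference genes (0.015), long noncoding RNAs (0.21), periportal (0.23), Kupffer (0.011) and stellate markers (0.42). The correction by GC content of the probes was not run, since no probe sequences were used here. Dim probes limit what could be seen, since 34.3% of probes were above background at 3 weeks.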

Other observations

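Probes without a gene symbol moved as well. Of 2918 probes for intergenic noncoding regions 44.3% rose and 19.4% fell, with a median of 0.27, against 32.5% and 33.2% of 11464 RefSeq mRNAs with a median of 0.00. Among those above background at both times the shares were 53.5% and 15.6% for 2035 regions and 40.4% and 29.1% for 8349 mRNAs. A region at chr13:100286676-100296051 of mm9, read on the forward strand, rose by 3.90 (SE 0.24), and one at chr5:100845342-100869667, read on the reverse strand, rose by 3.89 (SE 0.12). For 643 regions probes were tested on both strands, and their differences correlated at r = 0.371 across regions. Of 274 such regions with both strands called, 202 moved in the same direction.

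Noncoding RefSeq transcripts rose for 36.9% and fell for 24.2%, with a median of 0.13. In the tenth of genes with the lowest brightness the median was -0.19, but only 2.62% of them were above background at both times. The rest passed the filter through a single time, so that median is not a separate result. In the tenth with the highest brightness 100% were above background at both times. The median there was 0.09, with 42.1% rises and 38.6% falls.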
